A study of Homo sapiens with 6 samples.

Results

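The genes described here are those of the proteasome: its subunits, activators, inhibitor and assembly factors. They were taken by name, as the protein-coding genes whose symbol is PSMA, PSMB, PSMC, PSMD, PSME, PSMF or PSMG followed by a number. The rule also took POMP and left out pseudogenes. It was chosen with earlier results of these data known. This rule found 49 genes among the 67140 identifiers of the deposited table. Of these, 47 passed a filter on low counts, as did 19254 identifiers in all. The cells were KYSE150, an established line of human esophageal squamous cell carcinoma (ESCC), grown in RPMI 1640 with fetal bovine serum. The study compared 3 samples that carried a control hairpin (shCtrl) with 3 that carried a hairpin against the long non-coding RNA (lncRNA) AC007128.1 (shAC007128.1), to look for the expression changes that follow its depletion. Each group rests on a single hairpin sequence in a single cell line, so an effect of the hairpin itself and an effect of the lncRNA cannot be told apart. The labels do not say whether the samples came from separate cultures, and the p-values measure only the spread between these samples.

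The proteasome is the protease complex that degrades ubiquitin-tagged proteins in every cell. Its core is a barrel of alpha and beta rings that holds the catalytic sites, and its regulatory cap, built of a base with ATPases and a lid, recognises, unfolds and feeds the substrate. Cells exposed to interferon exchange the catalytic beta subunits PSMB5, PSMB6 and PSMB7 for PSMB8, PSMB9 and PSMB10, which gives the immunoproteasome and changes the peptides left for class I antigen presentation. When proteasome activity is short, the transcription factor NFE2L1 raises many subunit genes together through antioxidant response elements.

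Total counts lay between 55764405 and 78610457 per sample, and 3 counts, taken as the smallest detectable level, corresponded to 0.0382 to 0.0538 CPM (counts scaled to the size of each library). This floor covers counting error only. The targeted lncRNA itself was sparse, with 69, 33 and 53 counts in shCtrl and 18, 37 and 15 in shAC007128.1. The groups overlapped, and its log2 fold change of -0.77 (SE 0.51) did not pass the test (adjusted p = 0.271 by edgeR; exact permutation test, two-sided p = 0.2, with 0.1 the smallest p possible). Other gene models share 42.2% of its canonical exons. Depletion was therefore not shown by these counts at this depth. The paper does report, by qPCR, a lower AC007128.1 level in cells with its hairpin. The groups are named by their labels below. Markers of squamous epithelium were present, with a summed level of 2726.4 to 2763.5 CPM in shCtrl and 3875.0 to 4567.3 CPM in shAC007128.1. By the calls described below, 7 of these 11 markers were higher and 1 (DSG3, log2 fold change -1.09) was lower. These counts stand against 21.0% higher and 19.8% lower among all genes tested. The part of these markers in the results below was not tested. The 8 leukocyte markers summed to at most 5.28 CPM in any sample, and CD3D and MS4A1 were at 0 in all 6. The 6 fibroblast markers summed to 15.3 to 16.1 CPM in shCtrl and 20.9 to 23.9 CPM in shAC007128.1. COL1A1 made up most of this sum, at 13.9 CPM in shCtrl and 17.5 CPM in shAC007128.1 on average. LUM was at 1.07 and 4.71 CPM, and the other 4 fibroblast markers were under 1 CPM in every sample. The 4 endothelial markers summed to at most 3.11 CPM. In bulk RNA, fewer cells of a type and less RNA per cell cannot be told apart.

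Most proteasome genes had a higher level in shAC007128.1 cells than in shCtrl cells. Calls were made with edgeR's quasi-likelihood test where the adjusted p (Benjamini-Hochberg over all 19254 genes) did not exceed 0.05, and separately where the fold change was also at least 2. Of the 47 genes tested, 35 were higher and 3 were lower, and 9 did not pass. Among all genes tested, 21.0% were called higher and 19.8% lower. At 2-fold or more, 7 proteasome genes were higher, against 5.57% of all genes, and 0 were lower, against 10.1% of all genes. The 3 samples of the groups did not overlap for 37 higher and 4 lower proteasome genes, against 27.0% and 28.2% of all genes. The median log2 fold change was 0.55 over the proteasome genes and -0.02 over all genes tested. Among the 13591 protein-coding genes tested the median was 0.04 and 27.3% were called higher.

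**Figure D1:**
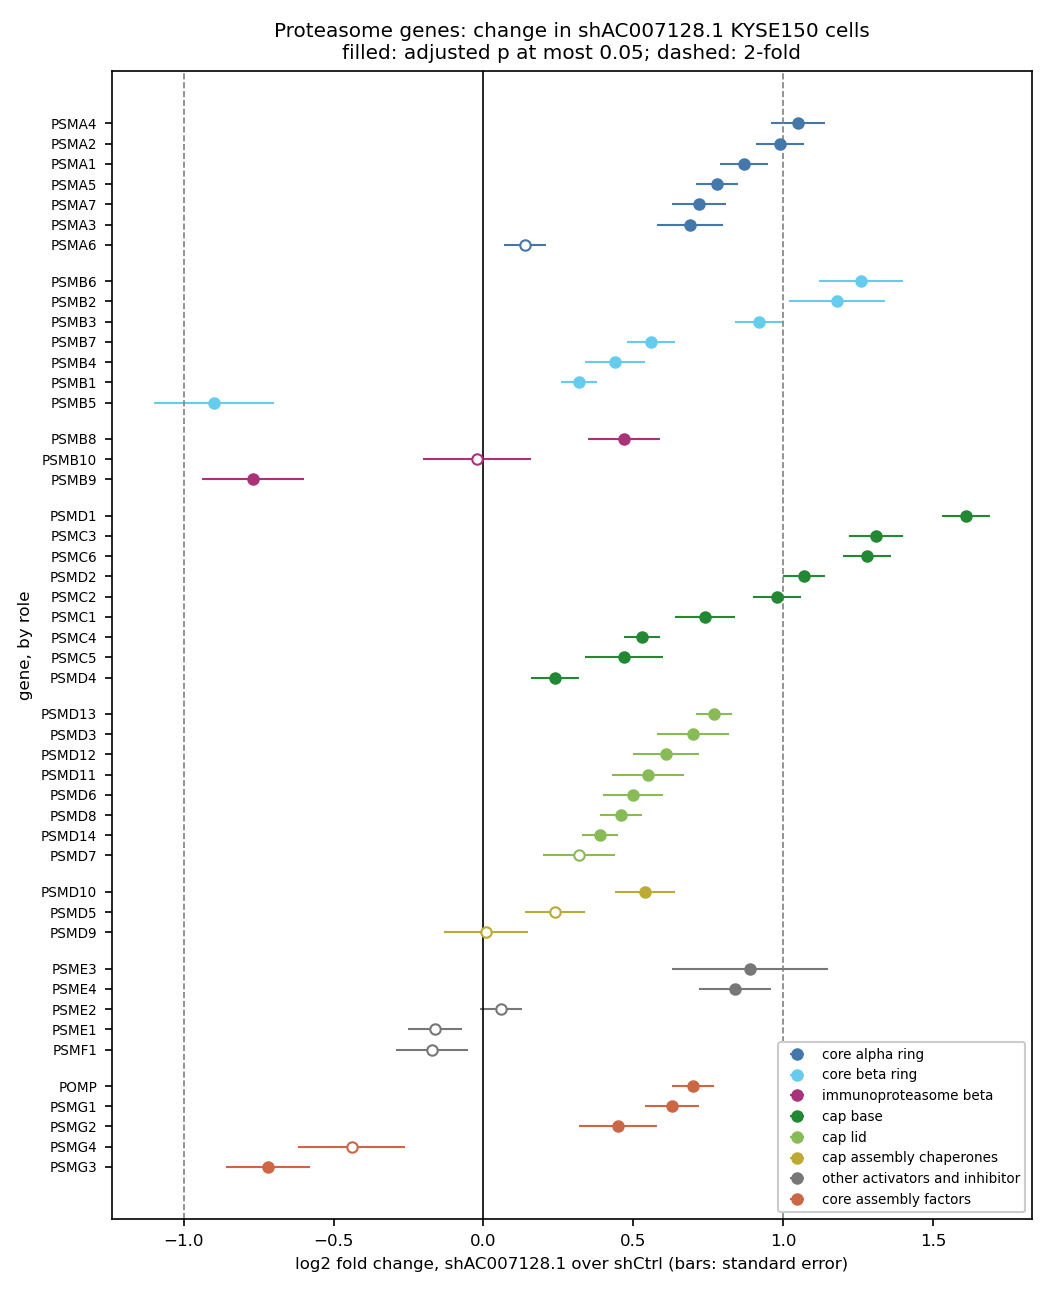
Log2 fold change (x axis) of the 47 proteasome genes tested (y axis, grouped and coloured by role), shAC007128.1 over shCtrl, n = 3 each, with bars for the standard error; filled points had an adjusted p of at most 0.05 and dashed lines mark 2-fold. All 9 base genes lie to the right of 0 from 0.24 to 1.61, while PSMB5, PSMB9 and PSMG3 are the filled points on the left.

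Most core and cap genes rose, and the 3 immunoproteasome subunits did not move together. Of the 14 core genes, 12 were higher, PSMB5 was lower and PSMA6 did not pass, with a median log2 fold change of 0.75. Of the 17 cap genes, 16 were higher and PSMD7 did not pass, with a median of 0.61. Of the 3 immunoproteasome subunits, PSMB8 was higher, PSMB9 was lower and PSMB10 did not pass, with a median of -0.02. A share of 33.3% higher among 3 genes is near the 27.3% of protein-coding genes. These counts are therefore not a result about the immunoproteasome subunits. The difference between these classes was not tested. The summed level of the core genes was 1715, 1596 and 1589 CPM in shCtrl and 2752, 2560 and 2499 CPM in shAC007128.1, or 159.4% of control. That of the cap genes was 2293, 2233 and 2186 CPM against 3904, 3740 and 3665 CPM, or 168.5% of control. Both sums separated the groups, and the lowest shAC007128.1 sample exceeded the highest shCtrl sample by far more than the spread within either group.

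Upstream sequences are given for the catalytic subunits that fell, PSMB5 and PSMB9, and for 3 subunits that rose, PSMB2, PSMB3 and PSMD1, so that the regions in front of genes that moved in opposite directions can be read side by side. They are taken 5′ to 3′ from the RefSeq promoters of GRCh38.p14 and cover the part of the 250 bases before the RefSeq start that no GENCODE v44 exon covers. The positions are chr14:23034901-23035111 (- strand), chr6:32853942-32854147 (+ strand), chr1:35641527-35641776 (- strand), chr17:38752491-38752740 (+ strand) and chr2:231056617-231056844 (+ strand). Capitals mark TTCNNNGAA (gamma-activated site, bound by STAT factors) in PSMB5 and TGACNNNGC (core of the antioxidant response element) in PSMB9, where it reads on the opposite strand, and in PSMB3.
PSMB5: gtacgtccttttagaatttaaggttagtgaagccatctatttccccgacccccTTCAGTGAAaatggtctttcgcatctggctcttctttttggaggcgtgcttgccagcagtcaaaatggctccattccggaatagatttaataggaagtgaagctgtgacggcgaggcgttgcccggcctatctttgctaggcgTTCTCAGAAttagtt
PSMB9: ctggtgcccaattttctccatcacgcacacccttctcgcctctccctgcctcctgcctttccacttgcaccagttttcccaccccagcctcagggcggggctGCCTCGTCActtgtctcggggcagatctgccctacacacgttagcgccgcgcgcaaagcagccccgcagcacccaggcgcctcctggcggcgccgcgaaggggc
PSMB2: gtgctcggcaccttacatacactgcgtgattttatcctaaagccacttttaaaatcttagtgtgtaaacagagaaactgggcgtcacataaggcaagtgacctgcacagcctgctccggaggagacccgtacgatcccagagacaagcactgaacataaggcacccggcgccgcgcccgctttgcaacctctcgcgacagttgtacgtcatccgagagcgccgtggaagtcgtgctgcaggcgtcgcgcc
PSMB3: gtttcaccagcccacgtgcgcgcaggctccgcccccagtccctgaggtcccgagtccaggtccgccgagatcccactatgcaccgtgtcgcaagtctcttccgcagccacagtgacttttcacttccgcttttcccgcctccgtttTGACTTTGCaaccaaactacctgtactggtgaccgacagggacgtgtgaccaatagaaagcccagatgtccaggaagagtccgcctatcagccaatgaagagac
PSMD1: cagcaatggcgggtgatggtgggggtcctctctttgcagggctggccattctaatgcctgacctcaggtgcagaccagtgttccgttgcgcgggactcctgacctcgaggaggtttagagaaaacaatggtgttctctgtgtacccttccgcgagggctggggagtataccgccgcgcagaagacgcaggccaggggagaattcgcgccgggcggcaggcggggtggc
In PSMB5 the gamma-activated site letters occurred at -158 to -150 and at -15 to -7 from the start, and in PSMB9 and PSMB3 the antioxidant response letters occurred at -148 to -140 and at -104 to -96. The printed stretches of PSMB2 and PSMD1 held neither of these, nor the interferon-stimulated response element nor GAANNTTC (heat shock element). The printed genes that rose are examples and not the 3 largest changes. Gamma-activated letters also occurred in promoters of genes that rose, PSMC4 and PSMD3 among them.

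Promoters of 300 bases (250 before and 50 after the start) were found for 43 of the 49 genes, and both strands were searched. The antioxidant response letters were present in 12 of them (27.9%), against 13.3% of all 35116 promoters of the same length. They were present in 7 of the 30 promoters of called-higher genes and in 5 of the other 13, and the called-higher genes with them were PSMB3, PSMC4, PSMD1, PSMD3, PSMD12, PSME4 and PSMG1. The interferon-stimulated letters were present in 6 (14.0%, against 3.57% of all promoters), namely PSMB4, PSMB8, PSMB10, PSME1, PSME2 and PSMG4. They were in 2 of the 30 promoters of called-higher genes and in 4 of the other 13. The gamma-activated letters were present in 7 (16.3%, against 7.66%), in 5 of the 30 promoters of called-higher genes and in 2 of the other 13. The called-higher genes with them were PSMA2, PSMB8, PSMC4, PSMD3 and PSME3. The others were PSMB5, which fell, and PSMA8, which was not tested. The CCAAT box was present in 18 (41.9%, against 34.6%), in 15 of the 30 promoters of called-higher genes and in 3 of the other 13. The heat shock letters were present in 0 (against 6.77%). No test was run on these splits. The median GC content was 62.3% in these promoters and 58.7% in all promoters, and a match of letters is a description of the sequence only.

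The alpha ring, which gates the entry to the core, rose in 6 of its 7 genes, with a median log2 fold change of 0.78. PSMA4 was measured at 87.1, 76.5 and 76.1 CPM in shCtrl and at 163.7, 155.9 and 175.3 CPM in shAC007128.1. It was the alpha gene past 2-fold (log2 fold change 1.05, SE 0.09, adjusted p = 0.000142), with every shAC007128.1 sample above every shCtrl sample. PSMA6 was measured at 120.2, 119.9 and 110.6 CPM against 132.3, 127.8 and 125.8 CPM. Its groups did not overlap, yet its log2 fold change of 0.14 (SE 0.07) did not pass (adjusted p = 0.156). The other alpha genes rose by log2 fold changes of 0.69 (PSMA3), 0.72 (PSMA7), 0.78 (PSMA5), 0.87 (PSMA1) and 0.99 (PSMA2). Counts of PSMA2, PSMA6 and PSMA1 are uncertain, because a neighbouring gene model shares 100%, 81.4% and 67.0% of the bases of their canonical exons on the same strand. The model that shares PSMA2 (ENSG00000256646) was itself counted at 28.2 CPM in shCtrl and 55.5 CPM in shAC007128.1 on average, a log2 fold change of 0.97. The models that share PSMA6 and PSMA1 were at 14.4 CPM or less in every sample.

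The beta ring carries the catalytic sites, and 6 of its 7 genes rose while PSMB5 fell. PSMB6, the caspase-like subunit, was measured at 59.9, 55.1 and 56.4 CPM in shCtrl and at 157.5, 143.9 and 108.4 CPM in shAC007128.1. Its log2 fold change was 1.26 (SE 0.14, adjusted p = 0.000475), the highest in the ring. PSMB2, a structural beta subunit, was measured at 140.1, 104.5 and 103.0 CPM against 307.4, 232.7 and 245.6 CPM, a log2 fold change of 1.18 (SE 0.16, adjusted p = 0.00102). Replicate 1 was the highest sample of PSMB2 in both groups. PSMB7, the trypsin-like subunit, was measured at 163.0, 161.9 and 162.8 CPM against 254.5, 246.3 and 218.1 CPM, a log2 fold change of 0.56 (SE 0.08, adjusted p = 0.00113). The structural subunits PSMB3, PSMB4 and PSMB1 rose by log2 fold changes of 0.92, 0.44 and 0.32, and that of PSMB4 did not pass without shCtrl replicate 2 (adjusted p = 0.0511).

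PSMB5 is the chymotrypsin-like subunit and the site that the drug bortezomib binds. It was measured at 65.5, 65.6 and 66.6 CPM in shCtrl and at 47.9, 28.6 and 29.2 CPM in shAC007128.1. All 3 shAC007128.1 samples lay below the shCtrl samples, and replicate 1 lay between the shCtrl samples and the remaining pair. The mean was 65.9 CPM ± 0.61 (SD, n = 3) against 35.2 CPM ± 11.0 (SD, n = 3), and the log2 fold change was -0.90 (SE 0.20, adjusted p = 0.00954). Without shAC007128.1 replicate 1 the log2 fold change was -1.19 (adjusted p = 0.000404), which takes PSMB5 past 2-fold. No annotated gene shares its canonical exons.

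Of the immunoproteasome subunits, PSMB8, the interferon-inducible counterpart of PSMB5, was measured at 19.3, 21.7 and 21.6 CPM in shCtrl and at 26.0, 33.0 and 27.6 CPM in shAC007128.1. The groups did not overlap and the log2 fold change was 0.47 (SE 0.12, adjusted p = 0.0183), a call lost when shCtrl replicate 1 or 3 or shAC007128.1 replicate 2 was left out (adjusted p up to 0.0756). PSMB9, the counterpart of PSMB6, was measured at 22.2, 22.2 and 18.7 CPM against 14.8, 12.4 and 9.70 CPM. All its shAC007128.1 samples lay below the shCtrl samples, with a log2 fold change of -0.77 (SE 0.17, adjusted p = 0.0100). PSMB8 and PSMB9, which lie on opposite strands of chromosome 6 with TAP1 between the starts used here, moved in opposite directions. PSMB10, the counterpart of PSMB7, was measured at 14.6, 12.9 and 13.0 CPM against 13.2, 16.3 and 10.3 CPM, and its groups overlapped (log2 fold change -0.02, SE 0.18, adjusted p = 0.925). A same-strand gene model, counted at 6.76 CPM or less in every sample, shares 56.1% of its canonical exons.

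**Figure D2:**
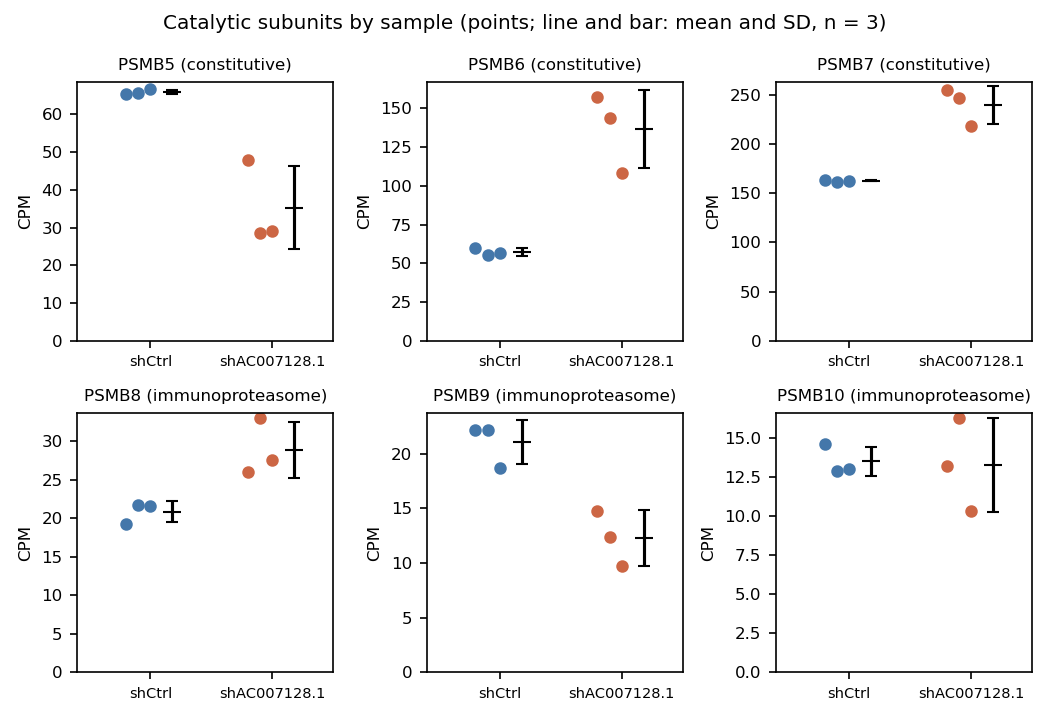
Level in CPM (y axis, from 0) of the 3 constitutive catalytic subunits (top) and their immunoproteasome counterparts (bottom) in each shCtrl and shAC007128.1 sample (x axis); points are samples, and the line and bar are the mean and SD, n = 3. PSMB6 and PSMB7 are higher in every shAC007128.1 sample and PSMB5 and PSMB9 are lower in every one, while the PSMB10 groups overlap.

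Set against its partner per kilobase of transcript, each immunoproteasome subunit was the lesser of its pair in shCtrl cells. PSMB8 made up 21.5%, 23.5% and 23.2% of PSMB8 plus PSMB5 in shCtrl and 33.5%, 51.7% and 46.7% in shAC007128.1. The mean share was 22.7% ± 1.08 (SD, n = 3) against 44.0% ± 9.38, with the lowest value again in shAC007128.1 replicate 1. PSMB9 made up 23.1%, 24.6% and 21.2% of PSMB9 plus PSMB6 in shCtrl and 7.09%, 6.53% and 6.76% in shAC007128.1. PSMB10 made up 8.26%, 7.44% and 7.45% of PSMB10 plus PSMB7 against 4.96%, 6.25% and 4.56%. So the share was higher in the first pair and lower in the other pairs, with no overlap between groups in any of them, and no test was run on the shares. Counting the exons of all transcripts in place of the canonical one lowered the first share to 12.4% in shCtrl and 27.7% in shAC007128.1, and the second to 13.8% and 3.75%, so the order of the groups held while the size of a share depended on the length used.

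**Figure D3:**
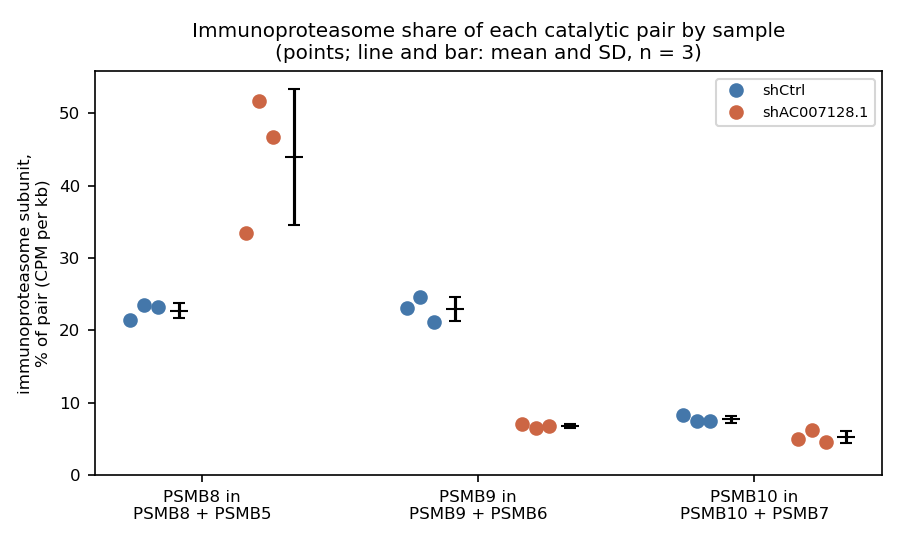
Share of each immunoproteasome subunit in its catalytic pair, in percent of CPM per kb of canonical transcript (y axis, from 0), by pair (x axis) for shCtrl and shAC007128.1; points are samples, and the line and bar are the mean and SD, n = 3. PSMB8 lies above 33% in every shAC007128.1 sample and below 24% in shCtrl, and PSMB9 lies below 8% against above 21%.

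The base of the cap rose in all 9 of its genes, with the highest median of any role (0.98), and 4 passed 2-fold. PSMD1, a large scaffold subunit of the base, had the largest change among the proteasome genes. It was measured at 92.4, 83.9 and 81.6 CPM in shCtrl and at 259.2, 251.9 and 274.2 CPM in shAC007128.1, a log2 fold change of 1.61 (SE 0.08, adjusted p = 2.54e-05). Each group stayed close around its mean, 86.0 CPM ± 5.71 (SD, n = 3) against 261.8 CPM ± 11.3. PSMD2, the other large scaffold subunit, was measured at 261.0, 279.5 and 270.7 CPM against 545.4, 606.7 and 550.3 CPM (log2 fold change 1.07, SE 0.07, adjusted p = 5.26e-05). The ATPase PSMC3 was measured at 151.5, 141.6 and 144.0 CPM against 395.1, 367.1 and 319.6 CPM (log2 fold change 1.31, SE 0.09, adjusted p = 7.22e-05). The ATPase PSMC6 was measured at 43.7, 44.6 and 44.7 CPM against 102.4, 103.0 and 116.9 CPM (log2 fold change 1.28, SE 0.08, adjusted p = 5.85e-05). In all 4 genes every shAC007128.1 sample was more than 2 times as high as the mean of shCtrl.

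The remaining ATPases rose by log2 fold changes of 0.98 (PSMC2), 0.74 (PSMC1), 0.53 (PSMC4) and 0.47 (PSMC5). The call of PSMC5 was lost when shCtrl replicate 1, 2 or 3 or shAC007128.1 replicate 1 or 2 was left out (adjusted p up to 0.0837). NRDE2, on the opposite strand, shares 83.2% of the canonical exons of PSMC1, and since the use of strand in counting is not given, the reads of the genes cannot be told apart. NRDE2 itself was at 30.0 CPM in shCtrl and 39.1 CPM in shAC007128.1. PSMD4, the ubiquitin receptor of the base, was measured at 162.4, 153.3 and 147.8 CPM against 191.1, 188.5 and 166.9 CPM. The groups did not overlap, but with a log2 fold change of 0.24 (SE 0.08) it lay just inside the limit (adjusted p = 0.0488) and it passed in 3 of 13 alternative settings.

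The lid, which removes the ubiquitin chain, rose in 7 of its 8 genes, with a median of 0.53 and none past 2-fold. PSMD13 was measured at 99.4, 96.5 and 96.3 CPM in shCtrl and at 167.8, 164.8 and 167.1 CPM in shAC007128.1, the highest change in the lid (log2 fold change 0.77, SE 0.06, adjusted p = 0.000127). PSMD14, the deubiquitinase of the lid, was measured at 166.7, 163.1 and 161.2 CPM against 213.1, 205.2 and 224.0 CPM (log2 fold change 0.39, SE 0.06, adjusted p = 0.00287). PSMD7, which pairs with PSMD14, was measured at 152.3, 136.1 and 139.4 CPM against 187.7, 145.1 and 199.5 CPM. Its groups overlapped through shAC007128.1 replicate 2, and its log2 fold change of 0.32 (SE 0.12) did not pass (adjusted p = 0.0801). It passed when that sample was left out (log2 fold change 0.45, adjusted p = 0.0114). A lncRNA on the opposite strand, counted at 7.50 CPM or less in every sample, shares 51.6% of the canonical exons of PSMD7. The other lid genes PSMD3, PSMD12, PSMD11, PSMD6 and PSMD8 rose by log2 fold changes of 0.70, 0.61, 0.55, 0.50 and 0.46.

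Assembly factors, which leave the finished particle, moved in both directions. Of the 5 core assembly factors, 3 were called higher (60.0%, against 21.0% of all genes and 27.3% of protein-coding genes) and 1 lower (against 19.8% of all genes). POMP, the maturation factor of the core, was measured at 125.2, 115.7 and 117.7 CPM in shCtrl and at 199.6, 191.4 and 193.6 CPM in shAC007128.1 (log2 fold change 0.70, SE 0.07, adjusted p = 0.000238). PSMG1 and PSMG2 form a dimer that starts the alpha ring. PSMG1 was measured at 53.2, 51.5 and 51.8 CPM against 75.0, 79.8 and 88.2 CPM (log2 fold change 0.63, SE 0.09, adjusted p = 0.00111). PSMG2 was measured at 58.4, 68.0 and 63.0 CPM against 83.7, 73.7 and 100.4 CPM (log2 fold change 0.45, SE 0.13, adjusted p = 0.0267), and its call was lost when any shCtrl replicate or shAC007128.1 replicate 1 was left out (adjusted p up to 0.0980).

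PSMG3 and PSMG4 form a second dimer of this kind, and PSMG3 fell. It was measured at 60.4, 59.4 and 73.2 CPM against 46.2, 34.7 and 36.1 CPM, lower in every shAC007128.1 sample (log2 fold change -0.72, SE 0.14, adjusted p = 0.00568). PSMG4 was measured at 16.9, 17.5 and 17.1 CPM against 15.6, 9.52 and 12.9 CPM. Its groups did not overlap, but its log2 fold change of -0.44 (SE 0.18) did not pass (adjusted p = 0.0902). Without shAC007128.1 replicate 1 it was -0.62 and passed (adjusted p = 0.0301).

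Of the 3 chaperones of the base, PSMD10 (gankyrin) rose and PSMD5 and PSMD9 did not pass. A share of 33.3% higher among 3 genes is near the 27.3% of protein-coding genes. This count is therefore not a result about the chaperones. PSMD10 was measured at 32.3, 34.6 and 32.0 CPM against 46.8, 43.1 and 53.6 CPM (log2 fold change 0.54, SE 0.10, adjusted p = 0.00549). PSMD9 was measured at 34.6, 37.4 and 40.6 CPM against 44.5, 37.5 and 31.7 CPM, with overlapping groups (log2 fold change 0.01, SE 0.14, adjusted p = 0.950). PSMD5 had a log2 fold change of 0.24 (adjusted p = 0.0904). The direction of PSMD9 changed with the scaling, and another model shares 28.8% of its canonical exons.

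Activators other than the cap, and the inhibitor, split by gene. Of these 5 genes, 2 were called higher (40.0%, against 21.0% of all genes and 27.3% of protein-coding genes) and 0 lower (against 19.8% of all genes). PSME1 and PSME2 form the interferon-inducible activator ring. PSME1 was measured at 112.1, 104.8 and 96.8 CPM in shCtrl and at 96.3, 84.9 and 99.5 CPM in shAC007128.1 (log2 fold change -0.16, SE 0.09, adjusted p = 0.216). PSME2 was measured at 70.7, 71.9 and 70.9 CPM against 73.1, 76.0 and 72.9 CPM (log2 fold change 0.06, SE 0.07, adjusted p = 0.552). Neither passed the test. PSME3, a nuclear activator, was measured at 95.3, 66.2 and 78.3 CPM against 176.6, 175.0 and 91.3 CPM. Its groups overlapped through shAC007128.1 replicate 3, and its log2 fold change of 0.89 (SE 0.26, adjusted p = 0.0301) did not pass without shCtrl replicate 2 or 3 or without shAC007128.1 replicate 1 or 2 (adjusted p up to 0.102). PSME4, an activator linked to histone degradation, was measured at 121.4, 125.6 and 113.1 CPM against 195.7, 196.3 and 254.5 CPM (log2 fold change 0.84, SE 0.12, adjusted p = 0.00122). PSMF1, a proteasome inhibitor, was measured at 82.9, 85.3 and 99.1 CPM against 90.1, 70.0 and 78.1 CPM, with overlapping groups (log2 fold change -0.17, SE 0.12, adjusted p = 0.304).

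The tissue-restricted subunits were not tested. PSMA8, the alpha subunit of the testis, had 0 counts in all 6 samples, which allows a level of up to 0.0538 CPM in the shallowest sample. PSMB11, the catalytic subunit of the thymus, was at 0.146 CPM or less in every sample. Both are without a defined change at this depth.

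Per kilobase of canonical transcript, the proteasome genes differed among themselves even though many of their products stand in equal number in the particle. In shCtrl the core genes ran from 18.2 CPM per kb (PSMA4) to 229.1 CPM per kb (PSMB4), a ratio of 12.6, and in shAC007128.1 from 33.7 (PSMB5) to 336.4 CPM per kb (PSMA7), a ratio of 9.97. The cap genes ran from 20.5 (PSMC6) to 117.1 CPM per kb (PSMD4) in shCtrl, and from 35.6 (PSMD12) to 234.1 CPM per kb (PSMC3) in shAC007128.1. PSMB4 and PSMB1, first and second in shCtrl at 229.1 ± 25.6 and 223.1 ± 7.57 CPM per kb (SD, n = 3), did not differ beyond their spread. PSMB5 moved from rank 21 among the 47 genes to rank 37, and PSMG3 from rank 26 to rank 41. PSMD1 moved from rank 35 to rank 24, PSMB6 from rank 20 to rank 8 and PSMC6 from rank 41 to rank 31. These ranges and ranks depend on the length used, and no other length was tried for them. The canonical transcript has 4378 bases in PSMA4 and 4426 in PSMB2, of which 783 and 603 are coding. In PSMB4 it has 918, of which 792 are coding. The size of the spread between genes is therefore uncertain. The immunoproteasome subunits were low in both groups, at 13.8 to 20.7 CPM per kb in shCtrl and 12.1 to 25.7 CPM per kb in shAC007128.1. Their summed level was 53.1 ± 1.84 against 51.4 ± 6.78 CPM per kb (SD, n = 3), which differ by less than the spread, while the summed core level was 1453.0 ± 55.8 against 2216.9 ± 125.1 CPM per kb.

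**Figure D4:**
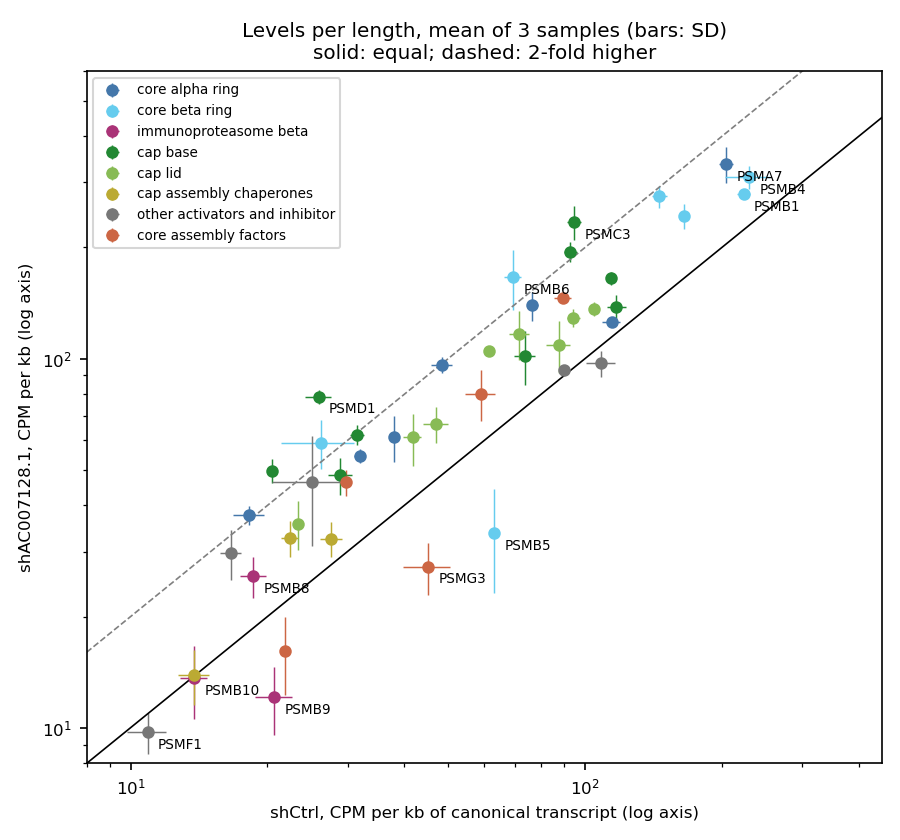
Mean level per kb of canonical transcript in shAC007128.1 (y axis, CPM per kb, log axis) against shCtrl (x axis, log axis) for the 47 proteasome genes, n = 3 each, coloured by role, with bars for the SD; the solid line marks equal levels and the dashed line 2-fold higher. PSMB5, PSMG3 and PSMB9 lie well below the solid line, and PSMD1, PSMC3 and PSMB6 above the dashed line.

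The genes lie on 18 chromosomes, with 8 on chromosome 14 and 7 on chromosome 17. PSMB5 and PSMC6 are both on chromosome 14, and PSMB6 and PSMD11 both on chromosome 17. Reads could also be split with pseudogenes. Of 45 proteasome pseudogenes, 5 had more than 10 counts in any sample. None reached 1% of its parent gene, the highest being PSMD10P1 at 0.914%. How reads that match more than 1 place were counted is not given, so these counts cannot show whether parent genes lost reads.

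Genes that work with the proteasome were read from lists, and their counts stand beside the 21.0% of all genes tested that were called higher (27.3% of protein-coding genes) and the 19.8% called lower. Of 16 proteasome-associated proteins outside the naming rule, 7 (43.8%) were higher and 0 lower, with a median log2 fold change of 0.27. USP14, a deubiquitinase of the cap, rose by 1.0 on the log2 scale (SE 0.13, adjusted p = 0.00102), just short of 2-fold, from 93.1 to 185.7 CPM on average. The ubiquitin shuttle UBQLN1 rose by 0.58 (SE 0.08, adjusted p = 0.00160). ADRM1, the ubiquitin receptor of the cap that carries no PSM symbol, rose by 0.64 (SE 0.09, adjusted p = 0.00166), and AKIRIN2, which carries proteasomes into the nucleus, rose by 0.47 (adjusted p = 0.00234); both were named after their values were seen. Of 6 genes for ubiquitin and its activating enzymes, UBB was listed at 0 in all samples and not tested. Of the other 5, 3 were higher and 0 lower, and among them UBA1 rose by 0.66 and RPS27A by 0.31.

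The NFE2L1 list held 11 genes, of which 2 were higher (18.2%, against 21.0% of all genes) and 4 lower (against 19.8% of all genes), with a median of -0.18 that turned to 0.04 without shCtrl replicate 3. NFE2L1 itself did not pass (log2 fold change -0.18, SE 0.17, adjusted p = 0.424). DDI2, the protease that cleaves NFE2L1, rose by 0.61, and VCP, the ATPase that draws it out of the membrane, rose by 0.71. SEL1L and SYVN1, which form the ubiquitin ligase of the endoplasmic reticulum that turns NFE2L1 over, fell by 1.52 and by 0.96 on the log2 scale. OGT, which glycosylates proteins, fell by 1.34, from 529.4 to 209.0 CPM on average. MAFF, a small partner of NFE2L1 on DNA, fell by 1.54 (SE 0.35, adjusted p = 0.0111), from 60.5 to 20.8 CPM. SEL1L, OGT and MAFF were the 3 members past 2-fold, all lower.

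The list of class I antigen processing and its regulators held 17 genes, of which 4 were higher (23.5%, against 21.0% of all genes) and 3 lower (against 19.8%), with a median of -0.14. These shares are near those of all genes, so the counts are not a result about the list. ERAP1, which trims peptides in the endoplasmic reticulum, fell by 1.15 on the log2 scale (SE 0.11, adjusted p = 0.000245), the one member past 2-fold. The chaperones CALR and PDIA3 fell by 0.77 and 0.49, and NLRC5, JAK2, STAT2 and IRF2 rose by 0.60, 0.70, 0.49 and 0.47. TAP1, the peptide transporter gene between PSMB8 and PSMB9, did not pass (log2 fold change -0.01, SE 0.12, adjusted p = 0.956), nor did IRF1 (log2 fold change -0.14, adjusted p = 0.362).

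Other large complexes were read in the same way. The CCT chaperonin, which folds actin and tubulin, rose in all 8 of its genes, against 21.0% of all genes, with a median of 0.68 and CCT6A (1.16) and CCT3 (1.01) past 2-fold. In the COP9 signalosome, whose architecture resembles the lid, 3 of 10 genes were higher (30.0%, near the 27.3% of protein-coding genes), with a median of 0.20, and COPS9 rose by 0.95 and COPS6 by 0.48. In the translation factor eIF3, also related to the lid, 0 of 13 genes were called higher and 4 were lower (EIF3D, EIF3I, EIF3L and EIF3M), against 21.0% and 19.8% of all genes, with a median of -0.17. The count of lower eIF3 genes dropped to 1 without shCtrl replicate 1. It was 2 without shCtrl replicate 2 or 3 or without shAC007128.1 replicate 1 or 2. Without shAC007128.1 replicate 3, 1 eIF3 gene was called higher. The differences between these lists were not tested.

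**Figure D5:**
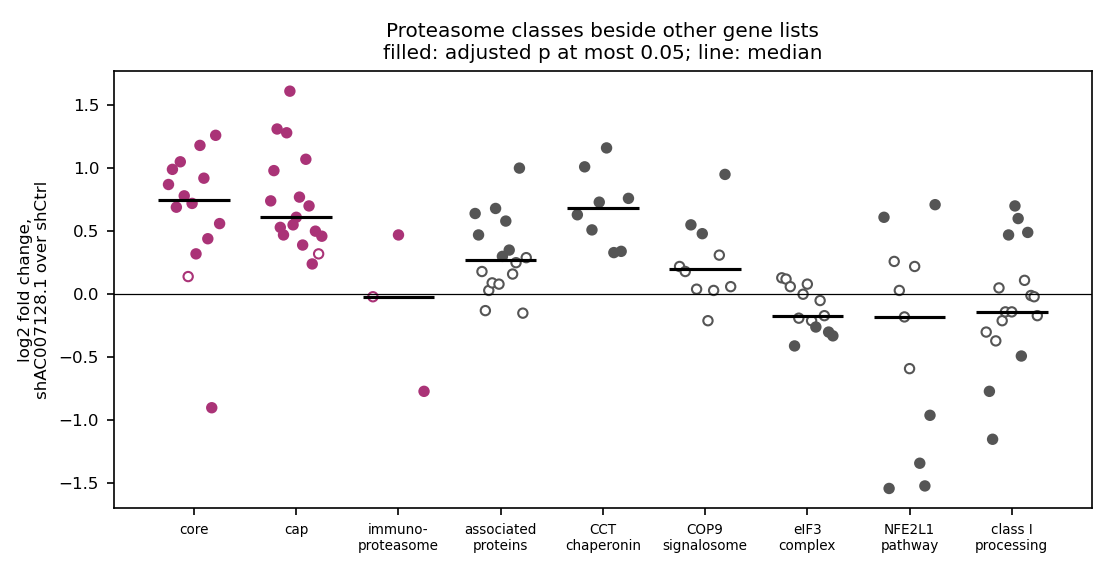
Log2 fold change (y axis), shAC007128.1 over shCtrl, of the core, cap and immunoproteasome genes (purple) and of 6 other gene lists (grey, x axis); points are genes, filled where the adjusted p was at most 0.05, and lines are medians. The core (0.75), cap (0.61) and CCT chaperonin (0.68) have the highest medians, and eIF3 (-0.17), the NFE2L1 list (-0.18) and the class I list (-0.14) lie just below 0.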

How the data were processed

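Poly-A RNA from 3 shCtrl and 3 shAC007128.1 samples of KYSE150 was sequenced on an Illumina instrument after a TruSeq preparation. The study's methods give TopHat with hg38 and Cufflinks for FPKM, while the submitters' processing notes name CASAVA 1.8, TopHat2 2.0.6 and the builds GRCh38 and mm10, the latter a mouse build. The counting program, annotation and use of strand are not given in the sources used here. The authors deposited estimated counts per Ensembl gene, not normalized and written as whole numbers. Since low values often fell on multiples of 4, dividing the counts by 4 was tried. Groups and replicate numbers came from titles and descriptions. The labels' treatment text gives shAC007128.1 even for the shCtrl samples and was not used.

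Symbols, positions and lengths came from GENCODE v44, which held 60357 of 67140 identifiers. Counts, used as deposited, were filtered with filterByExpr (47886 identifiers removed), scaled by TMM (factors 0.9668 to 1.042) and tested by quasi-likelihood in edgeR 4.0.16 (R 4.3.3, glmQLFTest), with standard errors as the log2 fold change over the root of F. CPM use the same factors, and levels between genes are CPM per kb of the canonical transcript. The members and all lists were chosen with earlier results of these data known. Values are given by sample for members past 2-fold, the catalytic subunits, activators, inhibitor, core assembly factors, PSMD4 and PSMD14, and the highest and lowest of each other role, and from each list for members past 2-fold or else the 2 with the smallest p. Other list genes named were chosen after their values were seen. A few list genes are not reported here. Alternatives were DESeq2 1.42.0, scaling by its size factors or by library size alone, no filter on low counts, a minimum of 10 counts in all samples, a replicate block, counts divided by 4, each sample left out, and other lengths for the shares, of which the exons of all transcripts were added after seeing the data. Deviations of same-numbered samples correlated at 0.0306, -0.0254 and -0.0299, so the numbers were not taken as pairs. On simulated counts of 18665 genes with 200 changed, 155 (77.5%) were called by edgeR, with 10 false calls among 18465 unchanged genes. DESeq2 called 166 of them, with 46 false calls. The changed genes were drawn from those above a limit on counts. No change as small as that of PSMA3 (log2 fold change 0.69), or smaller, was simulated, so the simulation cannot speak to such calls. Among them are those of PSMD4, PSMB1, PSMB7, PSMC4, PSMD14, PSMG1 and most called genes of the lid. Far fewer genes were changed in it than were called in the data.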

Additional observations from a re-analysis of the deposited data

How the results depend on the processing

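Of the 47 proteasome genes tested, 38 were called, and 32 of these calls passed under all 13 alternatives. The other 6 (PSMB4, PSMB8, PSMC5, PSMD4, PSME3 and PSMG2) failed in at least one. Over those alternatives the count of higher members ran from 30 to 35. With library size only, medians of log2 fold change dropped to 0.70 (alpha ring), 0.45 (lid), 0.67 (core), 0.53 (cap), 0.20 (associated proteins), 0.29 (ubiquitin) and 0.60 (CCT). With no filter the medians of the associated proteins and ubiquitin lists were 0.23 and 0.32, and with at least 10 counts in every sample that of the associated proteins was 0.24.

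With samples left out in turn, members lower at 2-fold or more ran from 0 to 1, the 1 being PSMB5 without shAC007128.1 replicate 1. Medians ran from 0.47 to 0.60 (lid), 0.31 to 0.55 (core assembly factors), 0.21 to 0.32 (associated proteins), -0.32 to 0.04 (NFE2L1 list) and 0.25 to 0.43 (ubiquitin). Values that changed sign were all uncalled: PSMB10 (0.03 without shCtrl replicate 1, 0.12 without shAC007128.1 replicate 3, and -0.20 to 0.12 over all samples left out), PSME2 (-0.02 with library size only) and PSMD9 (-0.06 with library size only, -0.03 with no filter, -0.02 with at least 10 counts, -0.01 with counts divided by 4, -0.05 without shCtrl replicate 1, -0.12 without shAC007128.1 replicate 1). The cause was not tested.

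The share of PSMB8 was 24.1% in shCtrl with no division by length, and 12.4% and, in shAC007128.1, 27.7% with exons of all transcripts. That of PSMB9 was 26.9% and 8.25% with no division, 28.6% and 8.94% by coding length and 13.8% and 3.75% with exons of all transcripts, and that of PSMB10 was 8.37% in shCtrl with the last. With the replicate block 33 members were higher and 3 lower, 7 higher at 2-fold or more, and PSMD4 and PSMG2 were no longer called (adjusted p = 0.0631 and 0.0529); 3524 of all genes were higher and 3256 lower. Depth limits AC007128.1, PSMA8 and PSMB11, and levels are relative to the other RNA of each sample.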
